A study of Homo sapiens with 4 samples.

Results

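The cytosolic ribosomal proteins are the proteins of the large (60S) and small (40S) subunits of the ribosomes that translate nuclear messenger RNAs. Their genes were taken by symbol, as RPL or RPS followed by a number, plus RPLP0, RPLP1, RPLP2 and RPSA and without the RPS6K kinases. This gave 86 of the 26255 genes in the deposited files: 46 core genes of the large subunit, 31 core genes of the small subunit and 9 paralogues, which are relatives of a core gene kept under their own symbols. RNA was measured by sequencing in MRC5 cells, an established line of human lung fibroblasts, labelled wild type and normal. The 4 libraries were 2 controls whose treatment label is "no" and 2 whose treatment label is "miRs", for microRNAs, and the titles put all of them at 48 h. The design text speaks of transfection, the microRNAs are not named, and the series title sets a control microRNA against the miRs, so the labels do not settle if a control microRNA was given to the control cells. The labels do not say if the libraries of a group are separate cultures. The p-values therefore cover only how far these 4 libraries vary, and that variation could be purely technical.

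Ribosomal proteins fold onto ribosomal RNA in the nucleolus with the help of assembly factors that leave before the ribosome works. Cells make them in near-equal numbers of copies, and growing cells spend a large part of their messenger RNA on them. Most of their messenger RNAs begin with a C followed by a run of pyrimidines, the 5′ terminal oligopyrimidine (TOP) tract, through which the kinase mTOR and the protein LARP1 control their translation and stability. Many of these genes are short, have several processed pseudogenes elsewhere in the genome and carry snoRNAs in their introns, so the assignment of fragments to them is uncertain.

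The starts of the genes that the values below turn on are shown first, because the tract is the feature that most core genes share and most paralogues lack. Each line gives the 20 bases before the annotated start and the 10 bases from it, 5′ to 3′ on the gene's strand, from RefSeq on GRCh38.p14. Capitals mark the unbroken run of C and T from a start at C, where it holds at least 4 more pyrimidines, as far as the window goes. RPL41 has the highest level of all members, RPS27 and RPL7A lay below and RPL36 above both controls in both miRs libraries, and RPLP0 has a wide gap between the miRs libraries.
RPL41: gtagacggaacttcgcctttCTCTCggcct
RPS27: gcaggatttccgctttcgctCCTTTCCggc
RPLP0: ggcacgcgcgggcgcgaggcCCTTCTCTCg
RPL7A: attacccacaattccctttcCTTTCTCTCT
RPL36: gagttccgcgcggcgccagcCCTTCCgcca
RPL21: cgccgcggccccgcctctttCCTTTCggcc
RPL22: ctgcgtagttcgctcacctcCCTTTCTaac
RPL22L1: gaccgcgcggccgtagcttcCTCTCTgctc
RPL3: gacccgtaaggccgaccggcctctaccggc
RPS26: gctgggagacacataacctcgattttcttc
RPS27L: cccggaagttgatgccgagcgcagatcgct
RPL26L1: caggcagtcttccaggggtcggcgaacgaa

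On the plus strand, the windows lie at chr12:56116613-56116642 (RPL41), chr1:153990742-153990771 (RPS27), chr9:133348198-133348227 (RPL7A), chr19:5690275-5690304 (RPL36), chr13:27251538-27251567 (RPL21), chr12:56041898-56041927 (RPS26) and chr5:172958709-172958738 (RPL26L1). On the minus strand they lie at chr12:120201102-120201131 (RPLP0), chr1:6199586-6199615 (RPL22), chr3:170870186-170870215 (RPL22L1), chr22:39319614-39319643 (RPL3) and chr15:63157468-63157497 (RPS27L). Each holds the last bases upstream of the gene and the first bases of exon 1 of the transcript whose start is annotated there.

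RefSeq promoters, from 250 bases before to 50 after a start, were matched by symbol for 69 of the 86 members. Of the 62 core genes matched, 46 (74.2%) had the tract exactly at an annotated start, against 7.70% of all tested genes matched and 5.14% of all genes in the promoter table. When the tract was allowed to begin up to 5 bases from the start, 85.5% of the core genes had it, against 30.3% of tested genes and 25.2% of all genes. Of 5 paralogues matched (the Y-linked ones left out), only RPL22L1 had it at its start. Mitochondrial ribosomal protein genes had it in 6 of 68 cases (8.82%) and genes of ribosome assembly in 5 of 47 (10.6%).

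On either strand of these promoters, the letters CCGGAAG were found in 35.5% of core genes, 23.1% of tested genes and 12.2% of all genes. ATGGCG was found in 40.3%, 22.8% and 12.7% of them. TATAAA was found in 8.06%, 7.91% and 14% of them. A match describes letters in a window and shows no bound factor, and CCGGAAG and ATGGCG were about as common in the promoters of mitochondrial ribosomal proteins (42.6% and 47.1%), whose share with the tract is given above.

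The 4 libraries held between 11622 and 11781 genes at 1 FPKM or more, a measure of fragments scaled to transcript length and library size. Those averaging 1 FPKM or more over the libraries were tested, 11860 in all. The 9 fibroblast markers, collagens and VIM among them, were present in every library, and their summed level was 9929 and 10049 FPKM in the controls, 6668 in miRs replicate 1 and 11501 in miRs replicate 2. COL1A1 alone gave 4742 FPKM of the sum in replicate 2. Of these 9, 5 lay below and 0 above both controls in both miRs libraries, against 30% and 29.5% of tested genes. Their median log2 difference was -0.97 in miRs replicate 1 and -0.61 in replicate 2. All 5 blood markers stayed under 1 FPKM in every library, as did 4 of 6 epithelial and 4 of 5 endothelial markers, while the 5 smooth muscle markers summed to 721 and 467 FPKM in the controls and to 149 and 143 with miRs. Of the 4 smooth muscle markers tested, 3 lay below and 1 above both controls in both miRs libraries. The 1 above was DES, at 0.36 and 0.59 FPKM in the controls and 7.90 and 2.18 with miRs. The part of these marker levels in the members' values was not tested. ACTB, often used as a reference, stood at 5648 and 5619 FPKM in the controls and at 3022 and 3679 with miRs, GAPDH at 6135 and 5526 against 4736 and 4421, and VIM at 3697 and 3170 against 2598 and 2249. The miRs libraries differed from each other more than the controls did: over all tested genes the median absolute gap was 0.27 between the miRs libraries and 0.12 between the controls, on the log2(FPKM + 1) scale used for every difference here. In bulk RNA, fewer cells of a type and less RNA per cell cannot be told apart.

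Ribosomal protein messenger RNAs filled the top of the expression range of these fibroblasts. Of the 100 genes with the highest mean FPKM, 53 were core ribosomal protein genes, and of the highest 200, 69 were. Their mean level had a median of 1006 FPKM and quartiles of 725 and 1301 FPKM over the 77 core genes. In 66 of them it was over 500 FPKM and in 6 it was under 200 FPKM. The transcript lengths behind the FPKM were not given, so the levels of different genes can be set side by side only roughly.

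RPL41, the smallest protein of the ribosome, was the most abundant, at 3795 and 3824 FPKM in the controls and 3703 and 3665 with miRs. RPLP1, an acidic protein of the stalk, followed at 2808 and 2984 FPKM in the controls and 2313 and 3013 with miRs. RPL37A stood at 2586 and 2893 FPKM against 2150 and 2571. RPS27, at 2564 and 2715 FPKM against 2056 and 2499, and RPS18, a protein of the small subunit's head, at 2491 and 2484 against 2132 and 2505, came next. RPL41 lay above every library of the others, while the ranges of RPLP1, RPL37A, RPS27 and RPS18 overlapped, so their order is not separated by the spread between libraries.

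At the low end, RPL22 stood at 144 and 142 FPKM in the controls and 119 and 148 with miRs. RPL27A stood at 120 and 122 FPKM against 97.2 and 122, and RPS23, a protein of the decoding centre, at 154 and 159 against 153 and 171. RPL13 stood at 178 and 180 FPKM against 137 and 177. All of these lay several times below the median core gene, although their proteins sit in the same particle. The part of fragment assignment or of the transcript lengths used in these low levels was not tested. The paralogues RPL3L, known from muscle, and RPL10L, known from testis, were listed at 0 in all 4 libraries and not tested. The other untested members were 1 core gene and 1 Y-linked paralogue, and the Y-linked paralogues are counted among the members but not described.

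No ribosomal protein gene passed the test with miRs, and the differences of the core genes spread less than those of all tested genes. Of the 82 members that could be tested (76 core genes and 6 paralogues), 0 passed an adjusted p of 0.05 in limma (Benjamini-Hochberg over all tested genes, 2-sided), against 0.245% of all tested genes. At an unadjusted p under 0.05 the count was also 0, against 24.2% of all tested genes, and the smallest adjusted p among the members was 0.306, of the paralogue RPL22L1. The log2 differences of the core genes had a median of -0.07 and an SD over genes of 0.12. Over all tested genes the median was -0.002 and the SD 0.615. Those genes range down to a mean of 1 FPKM and were not matched to the core genes by level. The miRs mean was lower in 61 core genes and higher in 15; with libraries set to an equal summed FPKM the split was 42 lower and 34 higher, and after quantile normalization 39 lower and 36 higher, with medians of -0.01 and -0.001. Both miRs libraries lay above both controls in 5 of the 76 core genes, against 29.5% of tested genes, and below both in 12 of 76, against 30% of tested genes. Quantile normalization gave 9 above and 3 below, and an equal summed FPKM left 2 below.

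The 2 miRs libraries lay on opposite sides of the controls for most core genes. In miRs replicate 1 the core genes had a median of -0.19 against the mean of the controls, and in miRs replicate 2 a median of 0.07, while all tested genes had medians of -0.003 and 0.001. The core medians were -0.09 and 0.11 after quantile normalization and -0.15 and 0.15 with an equal summed FPKM. Replicate 1 lay below both controls in 69 of the 76 core genes, against 44.5% of tested genes. Replicate 2 lay above both controls in 54 of 76, against 42.7%. Both held at once for 49 of 76 core genes, 28 of the large and 21 of the small subunit, against 9.22% of tested genes. The control libraries, by contrast, lay close together for these genes, with a median absolute gap of 0.03 over the core genes and 0.12 over all tested genes.

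**Figure D1:**
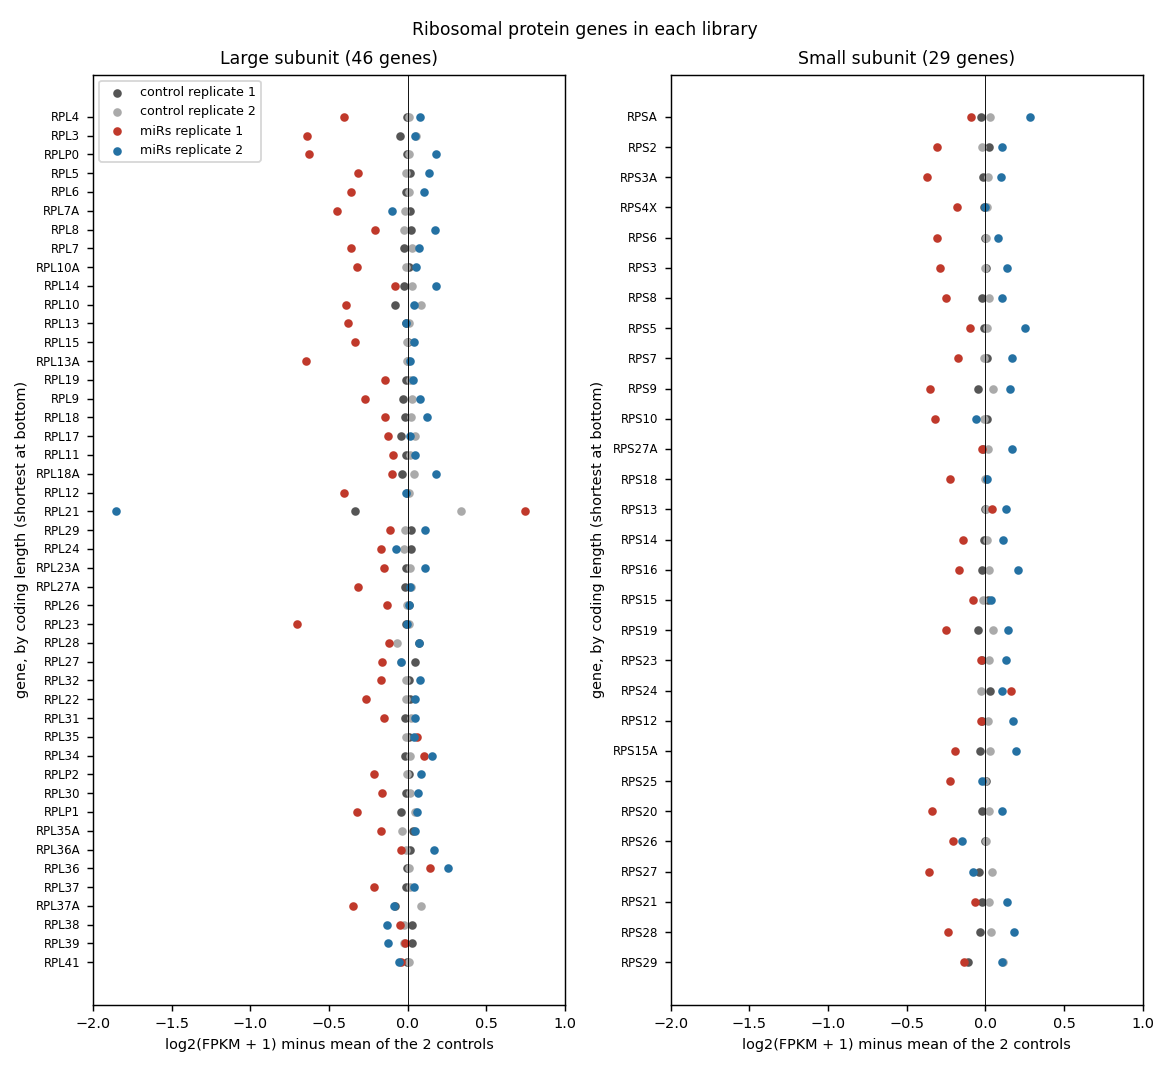
Each row is a tested core ribosomal protein gene (75 of the 76 are drawn), ordered by coding length, and each point a library, placed by its log2(FPKM + 1) minus the mean of the 2 controls. Most points of miRs replicate 1 lie below both control points and most of replicate 2 above both (69 and 54 of all 76 genes); RPL21 is the gene with the widest spread.

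Summed over the 77 core genes, the level was 83319 and 84825 FPKM in the controls, 72389 FPKM in miRs replicate 1 and 87468 FPKM in miRs replicate 2. This was 16.4% and 17.1% of the summed FPKM of all genes in the controls and 14.9% and 18.4% in the miRs libraries. The control libraries thus lay between the miRs libraries. The ratio of the miRs mean to the control mean was 0.951, and it was 0.861 with miRs replicate 1 alone and 1.04 with miRs replicate 2 alone. Large-subunit genes summed to 1.43 and 1.42 times the small-subunit genes in the controls and to 1.4 and 1.37 times with miRs; here both miRs libraries lay below both controls, by a margin smaller than the gap within the miRs pair.

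From miRs replicate 1 to replicate 2 the core genes differed by a median of 0.26, with 70 of 76 higher in replicate 2, whereas all tested genes had a median gap of -0.01, with 5791 of 11860 higher in replicate 2. The median absolute gap in this pair was 0.26 over the core genes and 0.27 over all tested genes. Beside all tested genes in this pair, the core genes thus stood out by the shared direction of the gap and not by its size. Between the controls, however, the median absolute gap was only 0.03 over the core genes, against 0.12 over all tested genes. Set against their own control gap, the core genes therefore also had a wide gap in the miRs pair. Between the controls the median signed gap was 0.02 over the core genes. In the miRs pair the median signed gap of the core genes lay between 0.25 and 0.29 under every rescaling, pseudocount and minimum tried. COL1A1, a fibroblast gene outside the members, also differed in this pair, at 1910 and 4742 FPKM with miRs against 2337 and 2521 in the controls, as did the summed fibroblast markers given above. The relative worth of 1 fragment, estimated from low genes, was 0.9 in miRs replicate 1 and 1.02 in replicate 2, with control replicate 1 set to 1. The part of depth or cell state in the members' gap was not tested.

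**Figure D2:**
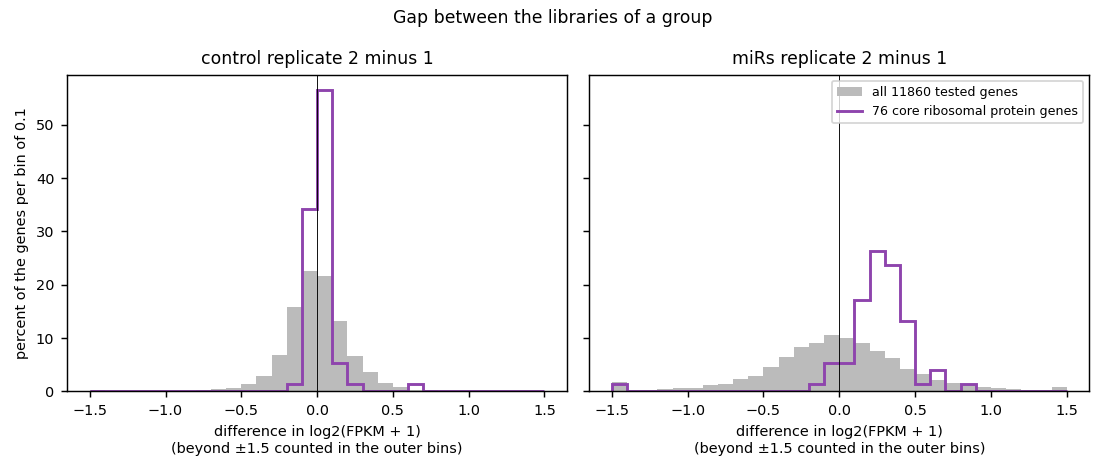
Histograms of the gap between the libraries of a group, on the log2(FPKM + 1) scale, for all 11860 tested genes (grey) and the 76 core ribosomal protein genes (line), as percent of genes per bin. The core genes crowd around 0 between the controls and lie to the right of 0 between the miRs libraries, with a median of 0.26.

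With a single miRs library left in the fit, assumed to vary like the controls, the calls depended on which one stayed. Without miRs replicate 2, 15 of the 82 members passed an adjusted p of 0.05 in limma, against 33.1% of the genes tested then. They comprised 11 large-subunit genes (RPL3, RPL4, RPL6, RPL7, RPL7A, RPL12, RPL13, RPL13A, RPL15, RPL23 and RPLP0) and the small-subunit genes RPS3A and RPS20, all lower with miRs, then RPL22L1, higher, and 1 Y-linked paralogue. Without miRs replicate 1, 1 of the 82 passed, RPL21, which was lower, against 18.6% of the genes tested then. Both shares of the members lay below those of all genes.

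The 4 core genes with the widest rise from miRs replicate 1 to replicate 2 all encode proteins of the large subunit. RPL23, which lies on the face that meets the small subunit, stood at 1409 and 1429 FPKM in the controls, 873 FPKM in miRs replicate 1 and 1411 FPKM in replicate 2. RPLP0, the base of the stalk, stood at 1649 and 1660 FPKM, then 1071 and 1876 FPKM. RPL3, which reaches towards the peptidyl transferase centre, stood at 1380 and 1480 FPKM, then 916 and 1475 FPKM. In each of these genes replicate 1 was far below the controls and replicate 2 was near or above them, so that the groups overlapped. RPL13A, a protein also known for repressing translation outside the ribosome, stood at 402 and 401 FPKM, then 256 and 406 FPKM. The genes of this paragraph were chosen after their values were seen, except RPLP0.

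The stalk recruits the GTPases of translation, and its 3 members had a median log2 difference of -0.13, with 0 called and none with groups that did not overlap. Their adjusted p in limma lay between 0.666 and 0.818. RPLP1 stood at 2313 FPKM in miRs replicate 1 and 3013 in replicate 2, on either side of its controls. RPLP2, its partner, stood at 1070 and 1062 FPKM in the controls and 918 and 1129 with miRs. All 3 were below both controls in replicate 1 and above both in replicate 2.

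RPL5 and RPL11 carry the 5S ribosomal RNA into the large subunit, and outside the ribosome the same complex binds MDM2, the inhibitor of p53. RPL5 stood at 793 and 781 FPKM in the controls and at 633 and 862 FPKM with miRs. RPL11 differed less, at 1244 and 1265 FPKM against 1177 and 1293 FPKM. Again both genes had replicate 1 under and replicate 2 over both controls, and the log2 differences were -0.09 (SE 0.19) and -0.02 (SE 0.13), with adjusted p of 0.794 and 0.924 in limma.

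The 9 core proteins around the exit of the nascent chain had a median log2 difference of -0.06, with 1 above and 0 below both controls in both miRs libraries, against 29.5% and 30% of tested genes. RPL39, which lines the tunnel, stood at 1153 and 1113 FPKM in the controls and 1120 and 1036 FPKM with miRs, 1 of the 6 core genes lower in replicate 2 than in replicate 1. RPL4, which forms part of the tunnel's constriction, stood at 1207 and 1217 FPKM against 914 and 1277 FPKM. The 8 proteins along the messenger RNA channel of the small subunit had a median of -0.02, and 7 of them lay below both controls in replicate 1 and above both in replicate 2. RPS26 was the exception and is described below.

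Genes whose loss of 1 copy causes Diamond-Blackfan anaemia, an inherited failure of red cell formation, were among the members with 14 tested. Their median log2 difference was -0.06, with 1 above and 3 below both controls in both miRs libraries, against 29.5% and 30% of tested genes, and 0 called, against 0.245%. In the 4 X-linked core genes the groups overlapped. RPL10, needed for the last steps of 60S assembly, stood at 529 and 592 FPKM in the controls and 426 and 576 with miRs. RPS4X stood at 759 and 768 FPKM against 672 and 763, and RPL36A at 315 and 310 against 303 and 351. RPL39, the other one, is given above.

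Among the core genes, only 5 had both miRs libraries above both controls. RPL36 stood at 919 and 928 FPKM in the controls and at 1017 and 1105 FPKM with miRs, a log2 difference of 0.20 (SE 0.12, adjusted p = 0.383 in limma). RPS24, of the small subunit and mutated in some patients with Diamond-Blackfan anaemia, stood at 995 and 954 FPKM against 1092 and 1047 FPKM, a difference of 0.13 (SE 0.12, adjusted p = 0.530 in limma). RPL34 stood at 257 and 263 FPKM against 280 and 290 FPKM. RPS13 stood at 798 and 804 FPKM against 825 and 878 FPKM, and RPL35 at 1307 and 1290 against 1354 and 1336. The separation in RPS13 and RPL35 was small beside the levels, and these 5 had log2 differences between 0.05 and 0.20.

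Of the 12 core genes with both miRs libraries below both controls (3 after quantile normalization and 2 with an equal summed FPKM), the 8 with the largest differences lay between -0.27 and -0.18. RPL7A, a protein bound early to the large-subunit precursor, led with 1833 and 1797 FPKM in the controls and 1329 and 1695 FPKM with miRs, a log2 difference of -0.27 (SE 0.17, adjusted p = 0.370 in limma). RPS27 and RPL37A had nearly the same difference, -0.22 each, at the levels given above. In RPL12, at 1381 and 1396 FPKM against 1048 and 1378, and in RPL13, the separation rested on replicate 1, since replicate 2 came within a few FPKM of the lower control. RPS10 stood at 1034 and 1023 FPKM against 824 and 986 FPKM.

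RPS26, which touches the messenger RNA as it leaves the small subunit, differed from most of the others. It stood at 531 and 533 FPKM in the controls and at 462 and 480 FPKM with miRs, so that the miRs libraries lay close together and both below. The log2 difference was -0.18 (SE 0.12, adjusted p = 0.411 in limma). It was the member of the messenger RNA channel whose replicate 2 did not exceed the controls, and its RefSeq start has no tract.

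RPL21, a large-subunit protein, was the exception in every comparison of libraries. It stood at 144 and 229 FPKM in the controls, at 305 FPKM in miRs replicate 1 and at 49.6 FPKM in replicate 2. The order of the miRs libraries was the reverse of that of most core genes, and the controls themselves differed more than those of any other core gene in the plot of the members. Its log2 difference was -0.55 with an SE of 0.89. RPL21 has many processed pseudogenes; whether fragments were assigned to them differently between libraries was not tested.

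The gap between the miRs libraries was wider in the core genes with longer coding sequences. The coding length of each gene's principal transcript was taken from GENCODE 29, a comparison chosen after the data were seen. The 25 core genes with the longest coding sequences, 582 to 1281 bases, had a median of -0.32 in miRs replicate 1 and 0.10 in replicate 2, and 22 of them had a gap over 0.3. The 25 with the shortest, 75 to 399 bases, had medians of -0.16 and 0.06, and 5 had a gap over 0.3. The 26 between had medians of -0.15 and 0.06, and 6 had a gap over 0.3. RPL41, with 75 coding bases, RPL39, with 153, and RPL38, with 210, were not higher in replicate 2 than in replicate 1. Others as short were: RPS29, with 168, by 0.24, RPS28, with 207, by 0.42 and RPS27, with 252, by 0.28. By comparison, RPL3, RPL4 and RPLP0, among the longest, had gaps of 0.69, 0.48 and 0.81.

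Across the 76 core genes the gap and the coding length had a Spearman rho of 0.54 and a Pearson r of 0.27 with log2 length. Without RPL21 these were 0.56 and 0.59 over 75 genes. Within the large subunit rho was 0.66 over 46 genes and within the small subunit 0.33 over 30. The same measure was 0.07 over the 10816 tested genes with a coding length and 0.005 for the gap between the controls over the core genes, where it was 0.17 within the large and -0.31 within the small subunit. The length of the whole principal transcript had a weaker relation to the gap between the miRs libraries. Its rho was 0.37 and its Pearson r 0.18 over the 76 core genes. Within the large subunit that rho was 0.45, and within the small subunit 0.21. The core genes share their 4 libraries and are no independent replicates. Tested genes with coding lengths in the range of the longest core genes (3597 genes) had a median gap of -0.03, where the 25 longest core genes had 0.39.

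**Figure D3:**
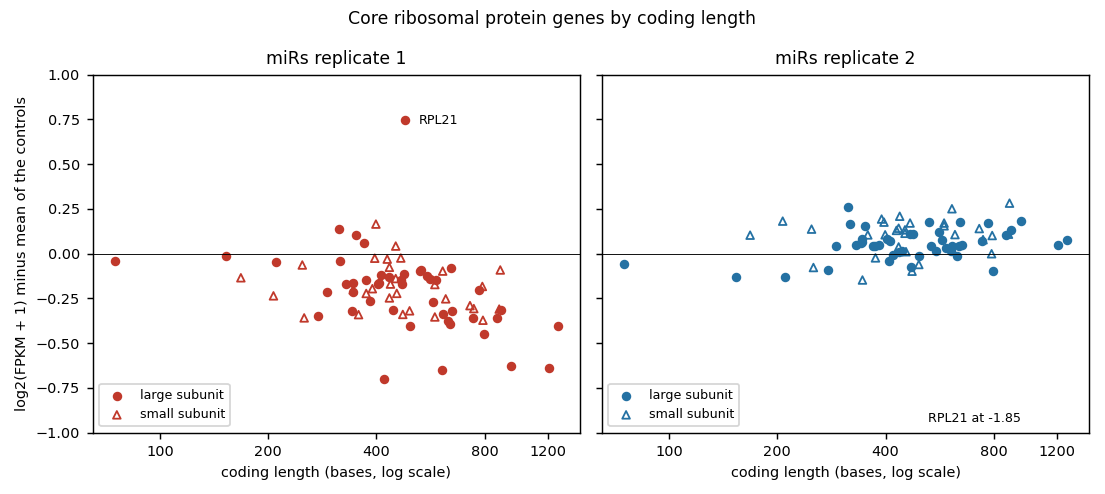
Each point is a core ribosomal protein gene (filled, large subunit; open, small subunit), placed by its coding length on a log axis and by its log2(FPKM + 1) in miRs replicate 1 (left) or 2 (right) minus the mean of the controls. In replicate 1 the median is -0.16 in the shortest 25 genes, -0.15 in the 26 between and -0.32 in the longest 25. In replicate 2 the same medians are 0.06, 0.06 and 0.10. RPL21 is at -1.85 in replicate 2, below the axis.

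The core genes were also set side by side by the tract at their start, with no test. The 46 with it had a median log2 difference of -0.06 and a gap between the miRs libraries of 0.24. The 16 without it, RPL3, RPL4, RPS26, RPS4X and RPL15 among them, had -0.09 and 0.30. The annotated start of a gene need not be the start used in these cells, and 7 of the 62 matched core genes had a tract only when an offset of up to 5 bases was allowed.

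Among the paralogues, RPL22L1 and RPL39L had both miRs libraries above both controls, and RPS27L and RPL26L1 had both below. With the Y-linked paralogue counted, 2 of the 6 tested lay above and 3 below, against 29.5% and 30% of tested genes. RPL22L1, which can take the place of RPL22 in the ribosome, stood at 36.4 and 35.4 FPKM in the controls and at 47.9 and 40.1 FPKM with miRs, a log2 difference of 0.28 (SE 0.14, adjusted p = 0.306 in limma). Set against RPL22 in the same library, it reached 25.2% and 25% in the controls, 40.4% in miRs replicate 1 and 27.1% in replicate 2. Both miRs values were above both controls, and replicate 1, in which RPL22 itself was low at 119 FPKM, made most of the difference. RPL39L stood at 29.5 and 26.3 FPKM against 32.3 and 30.8 FPKM, which was 2.56% and 2.37% of RPL39 in the controls and 2.88% and 2.97% with miRs.

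RPS27L, a paralogue of RPS27 known as a p53 target, stood at 133 and 152 FPKM in the controls and at 116 and 127 FPKM with miRs, a log2 difference of -0.22 (SE 0.14, adjusted p = 0.380 in limma). It kept between 5.09% and 5.65% of RPS27 in all 4 libraries, and RPS27 was lower as well. RPL26L1 stood at 50.1 and 47.2 FPKM against 44.0 and 43.6 FPKM, with both miRs libraries close together. RPL7L1, a nucleolar relative of RPL7, stood at 56.9 and 51.7 FPKM against 53.1 and 42.2 FPKM, and its groups overlapped. Where a paralogue and its core gene share sequence, fragments common to both may have been split by the counting. The sequence identity of these pairs was not computed.

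**Figure D4:**
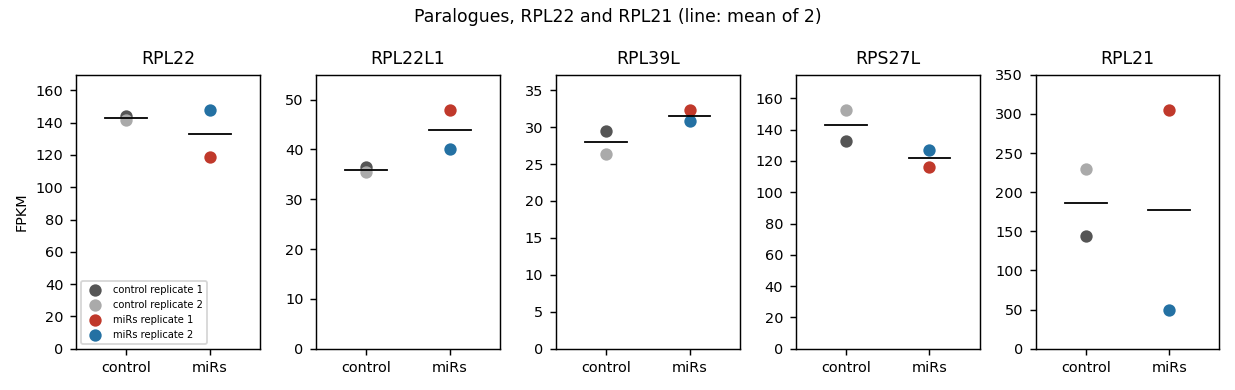
FPKM of RPL22, of 3 paralogues and of RPL21 in each library, with a line at the mean of each group of 2. RPL22L1 and RPL39L lie higher with miRs and RPS27L lower, without overlap, while RPL22 and RPL21 have a miRs library on either side of the control mean.

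Of the ribosomal protein genes whose symbols fall outside the rule, FAU, GNB2L1 and RPL36AL are given here. FAU, whose product releases a small-subunit protein, stood at 473 and 508 FPKM in the controls and 500 and 511 with miRs, and GNB2L1, the older symbol of the small-subunit protein RACK1, at 1146 and 1130 against 1004 and 1207. RPL36AL, a near copy of RPL36A, was the only one of these 3 whose groups did not overlap, at 326 and 325 FPKM against 307 and 246 FPKM. None passed the test.

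Genes for the factors that build ribosomes were mostly higher in miRs replicate 1, where the core ribosomal protein genes were mostly lower. Of 59 assembly genes tested, 30 had both miRs libraries above both controls and 1 had both below, against 29.5% and 30% of tested genes, with a median log2 difference of 0.28. Their median was 0.53 in miRs replicate 1 and 0.08 in replicate 2, and 0 of the 59 were higher in replicate 2 than in replicate 1, against 70 of the 76 core ribosomal protein genes. TCOF1, which serves ribosomal DNA transcription, stood at 19.0 and 20.1 FPKM in the controls and 38.2 and 36.7 with miRs, a log2 difference of 0.90 (SE 0.12, adjusted p = 0.0674 in limma). GAR1, of the pseudouridylating snoRNPs, stood at 15.0 and 14.7 FPKM against 32.8 and 22.1. No gene of this list passed the threshold. RNA polymerase I genes had a median of 0.18 over 15 tested, 7 above and 1 below both controls (29.5% and 30% of tested genes), with medians of 0.31 and 0.05 in the miRs libraries.

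Other messenger RNAs known to carry a TOP tract had medians on the same sides of the controls as the core genes. Over 16 of them the median was -0.20 in miRs replicate 1 and 0.09 in replicate 2, and 15 were higher in replicate 2 than in replicate 1. Gene by gene the pattern was weaker than in the core genes. Replicate 1 lay below and replicate 2 above both controls in 5 of the 16, against 49 of 76 core genes and 9.22% of tested genes. Elongation factors, 5 of which are also in that list, had medians of -0.38 and -0.13 over 9 tested. EEF1A1, which brings aminoacyl-tRNA to the ribosome, stood at 4003 and 4372 FPKM in the controls and 2468 and 3810 with miRs. EEF2, which moves the ribosome along, stood at 1017 and 1026 FPKM against 679 and 1087. Neither list held a gene past the threshold. Of the 16 TOP genes 4 lay above and 4 below both controls in both miRs libraries, and of the 9 elongation factors 2 above and 4 below, against 29.5% and 30% of tested genes.

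The 34 initiation factors tested had a median log2 difference of 0.10, with 14 above and 8 below both controls, against 29.5% and 30% of tested genes. EIF5, which triggers GTP hydrolysis at the start codon, stood at 42.3 and 42.1 FPKM in the controls and 56.9 and 57.9 with miRs. EIF4G3, a scaffold of cap binding, stood at 36.0 and 32.5 FPKM against 18.9 and 21.4 (log2 difference -0.74, SE 0.14, adjusted p = 0.0887 in limma). The 77 mitochondrial ribosomal protein genes, which build the separate ribosome of mitochondria, had a median of 0.15, with 35 above and 17 below both controls (29.5% and 30% of tested genes), and medians of 0.26 and 0.07 in the miRs libraries. In this list and among the assembly genes replicate 1 was the higher miRs library by median, the reverse of the cytosolic ribosomal proteins, and again 0 genes were called.

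Among the regulators of TOP messenger RNAs, 6 of 12 lay above and 1 below both controls in both miRs libraries, against 29.5% and 30% of tested genes. LARP1, which binds the TOP tract, stood at 44.8 and 44.3 FPKM in the controls and 53.9 and 58.1 with miRs. MTOR stood at 12.3 and 12.4 FPKM against 14.4 and 16.6. AKT1S1, an inhibitory partner of mTOR complex 1, was the gene below, at 51.0 and 51.8 FPKM against 28.5 and 38.2. EIF2AK2, the kinase that stops initiation when it binds double-stranded RNA and is induced by interferon, had the largest difference of the 6 translation repressors tested, at 9.12 and 9.54 FPKM against 42.7 and 25.5 (log2 difference 1.72, adjusted p = 0.077 in limma). Of these 6, only EIF2AK2 lay above both controls in both miRs libraries and 3 lay below, against 29.5% and 30% of tested genes. The median log2 difference of the 6 was -0.08. None of these lists held a call.

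**Figure D5:**
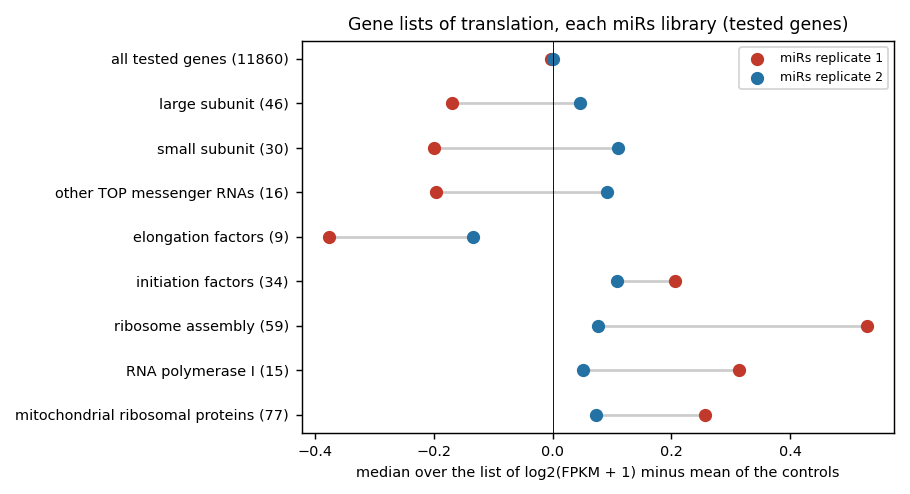
Median over each list of log2(FPKM + 1) minus the mean of the controls, for miRs replicate 1 (red) and replicate 2 (blue), with the number of genes tested. Cytosolic ribosomal proteins and other TOP messenger RNAs lie left of 0 in replicate 1 and right of it in replicate 2, while assembly factors lie at 0.53 and 0.08.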

How the data were processed

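RNA of MRC5 cells was made into stranded poly(A) libraries, per the labels' protocols. The authors' deposited files give FPKM by gene symbol, 1 value in each library, per their headers. The submitters' processing notes list hg19, Cuffdiff 2.2.1, TopHat2 2.1.1, SAMtools 0.1.18 and Bowtie2 2.2.8 with no roles. Annotation, strand setting and library scaling were not given in the sources used here. Read numbers are unknown, so precision rests on 2 libraries in each group (2 residual degrees of freedom). The relative worth of 1 fragment came from ratios of genes under 0.3 FPKM, of which 51.8% to 55.9% fell within 1% of a simple ratio.

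The 11860 genes averaging 1 FPKM or more were tested on log2(FPKM + 1) with limma 3.58.1 (R 4.3.3), with a variance trend, 2-sided, Benjamini-Hochberg adjusted at 0.05. Differences on this scale understate changes of low genes. Summaries used Python 3.11.15. The treatment label gave the groups, and titles gave the replicate numbers. Named were members past the threshold, the 8 largest rises and 8 largest falls among core genes whose groups do not overlap, the 5 highest and 5 lowest by mean FPKM, the stalk, 5S, X-linked and paralogue members, ribosomal proteins outside the symbol rule, and up to 4 genes of each other list by smallest p. Other names, EEF1A1 and EEF2 included, were chosen after their values were seen. Members and lists were chosen with earlier results of these data known. The alternatives tried were pseudocount 0.1, no minimum or 5 FPKM, 3 rescalings (median of ratios, quantile, equal summed FPKM), no variance trend, a replicate block, and leaving out each library. RPS4Y1 and RPS4Y2 are counted but not described, and a few other genes that the rule names are not reported here.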

Additional observations from a re-analysis of the deposited data

How the results depend on the processing

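The main limit is the spread within the miRs pair. Over the 4 fits that leave out 1 library, member calls ranged from 0 to 15, the median log2 difference of the core genes from -0.190 to 0.0729, core genes above both controls from 5 to 54 and those below from 14 to 69, and the ratio of summed FPKM from 0.861 to 1.04. The highest counts and both ends of the median and the ratio came without a miRs library, and the lowest counts above both controls without a control; without control replicate 1, 19 core genes lay below the remaining control. Quantile normalization gave 9 core genes above and 3 below both controls, and an equal summed FPKM gave 2 below; the cause was not tested. The other rescaling, pseudocount and minimum settings kept these counts within 1.5 times. No rescaling moved the median of all genes by more than 0.1; the equal sum moved it to 0.05. The gap between the miRs libraries over the core genes, checked under alternatives chosen after seeing the data, was 0.249 to 0.293. With the replicate block 0 members were called, as without a variance trend. The numbers were not taken to pair the libraries: the 2 gaps had r = 0.20 over all tested genes, and the labels name no shared batch. Over the core genes r was -0.63, but this includes RPL21, with a control gap of 0.67 and a miRs gap of -2.59. Leaving RPL21 out lowered the SD over core genes from 0.09 to 0.06 for the control gap and from 0.37 to 0.17 for the miRs gap. The r without RPL21 was not computed, so -0.63 is no measure of the other core genes. Of 384 values of 32 named members under alternatives, 369 kept their sign, and 12 of the members changed sign under some alternative. The minimum, variance trend and replicate block settings leave each log2 difference unchanged, so their values could not change sign. Nor could a member whose groups do not overlap when 1 library was left out. FPKM without counts gives no counting interval.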
